A study of Caenorhabditis elegans with 2 samples.

Results

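Transfer RNA (tRNA) genes that lie between protein-coding genes were examined for recovery with the transcription factor HLH-13 in whole embryos of the nematode Caenorhabditis elegans. A tRNA gene was taken if its span overlapped no protein-coding gene on either strand and if the summit of a pooled candidate region lay in it or within 100 bp of it. Of 634 annotated tRNA genes, 336 lay between coding genes, 319 of them nuclear and 17 mitochondrial. The rule selected 171 nuclear genes and 0 mitochondrial genes. These 171 genes lay at 165 distinct regions, because 12 of them shared 6 regions in pairs.

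Chromatin was immunoprecipitated with an antibody against GFP, per the sample descriptions, from strain OP744. Its transgene wgIs744 carries the fusion hlh-13::TY1::EGFP::3xFLAG, which puts the tags at the C-terminus of HLH-13, together with a rescuing unc-119(+) copy. The background has the unc-119 allele tm4063. Both biological replicates had this genotype and came from late embryos, aged 3.5 hours per the labels, that were obtained by egg bleaching and pooled both sexes. There was 1 group of 2 replicates and no second condition, and each list of regions was called against the same 1 control library; data of an untagged strain were not analysed here. Recovery therefore refers to a tagged transgene in whole embryos, in which strong recovery in few cells and weak recovery in many cannot be told apart.

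HLH-13 is a basic helix-loop-helix protein of the Ptf1a family, whose members bind E-box sequences as dimers and act in neural development. tRNA genes are short and are transcribed by RNA polymerase III from promoters inside the gene. The assembly factor TFIIIC binds an A box near the start of the gene and a B box near its end, and then places TFIIIB, which contains the TATA-binding protein, just upstream. A run of T after the gene ends the transcript. Because tRNA genes occur in many identical copies, short reads from them can be hard to assign to a copy.

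Both boxes were matched in 11 of the 12 genes of highest signal, the exception being R01H5.t1, which is not shown here. Sequences are from RefSeq for WBcel235, which is the assembly also called ce11. They run 5′ to 3′ on the coding strand from 20 bases before the annotated gene to 25 bases after it. Capitals mark the matches to the A box and, further on, to the B box. The first 7 are genes of high pooled signal. For C53C7.t1 that signal belongs to a region that it shares with C53C7.t2 and that overlaps only C53C7.t2. F49C5.t2 is shown because its gene is identical to F34H10.t1 but stood near the bottom of the list.
C04A11.t1 (Leu): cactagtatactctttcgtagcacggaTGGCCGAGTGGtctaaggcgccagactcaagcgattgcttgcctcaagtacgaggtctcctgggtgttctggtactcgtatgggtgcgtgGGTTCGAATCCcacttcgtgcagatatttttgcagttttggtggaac
F46G11.t2 (Pro): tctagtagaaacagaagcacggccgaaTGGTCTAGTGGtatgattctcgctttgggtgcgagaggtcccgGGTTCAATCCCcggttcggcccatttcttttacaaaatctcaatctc
C04E7.t1 (Leu): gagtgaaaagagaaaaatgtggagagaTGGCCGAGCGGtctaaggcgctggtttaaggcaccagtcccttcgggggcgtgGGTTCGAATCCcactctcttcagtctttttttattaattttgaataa
F28H6.t1 (Arg): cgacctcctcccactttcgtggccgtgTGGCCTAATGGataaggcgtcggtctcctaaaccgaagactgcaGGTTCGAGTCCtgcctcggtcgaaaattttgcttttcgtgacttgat
C53C7.t1 (Ser): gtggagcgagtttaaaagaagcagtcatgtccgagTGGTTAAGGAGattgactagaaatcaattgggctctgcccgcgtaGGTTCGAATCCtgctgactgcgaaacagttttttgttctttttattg
R04D3.t2 (Val): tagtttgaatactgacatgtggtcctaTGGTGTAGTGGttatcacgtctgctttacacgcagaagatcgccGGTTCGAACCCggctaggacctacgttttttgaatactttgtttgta
F34H10.t1 (Ala): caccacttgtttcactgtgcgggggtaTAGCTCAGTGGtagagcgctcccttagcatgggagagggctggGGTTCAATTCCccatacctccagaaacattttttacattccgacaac
F49C5.t2 (Ala): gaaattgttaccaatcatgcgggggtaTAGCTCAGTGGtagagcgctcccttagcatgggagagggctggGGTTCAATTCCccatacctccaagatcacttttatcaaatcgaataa

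These stretches lie at X:13665535-13665698, X:5801186-5801302 (minus strand), X:353230-353356 (minus strand), X:14115671-14115788, X:13046558-13046684, X:13307014-13307131, X:9637827-9637943 (minus strand) and II:12542614-12542730, in the order shown. The A box match began at base 8 of the gene in 7 of the 8 and at base 16 in C53C7.t1. The B box match began between base 51 and base 61, except in the longer C04A11.t1, where it began at base 98. Over all 171 genes, both boxes were matched in 138 (80.7%, 95% Wilson interval 74.1 to 85.9), against 116 of the 148 nuclear genes between coding genes without a candidate (78.4%). The A box was found in 170 members and the B box in 139, and a run of at least 4 T within 25 bp after the gene stood behind 170. In windows of 72 bp, the median gene length, at the 29663 pooled summits away from tRNA genes, read on both strands for the boxes, the A box was found in 2.61%, the B box in 0.354%, both in 0.0742% and the T run in 25.1%. The boxes thus marked tRNA genes as such and were about as frequent at tRNA genes with a candidate as at those without.

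The authors kept 423 of 30000 pooled candidates as their optimal set, or 1.41%, by a comparison of the replicates called the irreproducible discovery rate (IDR). These were the 423 regions with the highest signal value, the authors' own score of enrichment against the control, of unstated scale. Of the 171 members, 78 lay at an optimal region (45.6%, 38.3 to 53.1), and these 78 genes lay at 75 regions. Of all 319 nuclear tRNA genes between coding genes, members or not, 53.6% had a candidate and 24.5% an optimal region. The members were chosen on the pooled list, so these counts and all pooled signals describe them and no test was run. Intervals on shares cover the number of genes only, and read depth was unknown because the lists hold regions and no read counts.

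The pooled signal of the members had a median of 76.0, with quartiles of 49.2 and 120.1 and values between 25.6 and 344.6. The median over all pooled candidates was 34.2. In all, 156 of the 171 lay above that overall median. Among the 100 strongest pooled regions, 19 were at members. Ranks 101 to 423 held another 56 such regions of 323 (17.3%), ranks 424 to 1000 held 21 of 577 (3.64%), and ranks 10001 to 30000 held 19 of 20000 (0.095%). Members were therefore spread over the whole list, with 20 genes in its lower part.

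The leucine tRNA gene C04A11.t1 had the highest value, a pooled signal of 344.6 at rank 10, with 187.1 in replicate 1 and 156.5 in replicate 2. The lysine tRNA gene W03G11.t1 followed at 278.3, with 164.3 and 105.9 in the replicates. M02F4.t2 and M02F4.t1, a glutamate and a glycine tRNA gene on opposite strands separated by 116 bp, shared a region of signal 263.8, with 149.7 and 104.3 in the replicates. These leading genes ranked among the best 70 regions of each replicate. The isoleucine tRNA gene C42D8.t1 had 259.0 in the pooled list, with 119.1 in replicate 1 and 151.1 in replicate 2. F46G11.t2, a proline tRNA gene, had 242.1, with 137.6 and 106.8. The leucine tRNA gene C04E7.t1 had 227.2, with 111.7 and 116.7. Which replicate was higher changed from gene to gene. F28H6.t1, an arginine tRNA gene, had 218.4, with 110.8 and 106.2, and the threonine tRNA gene R01H5.t1 had 213.0, with 94.2 and 114.8. The serine tRNA genes C53C7.t2 and C53C7.t1 shared a region of signal 211.6, which overlapped only C53C7.t2. F56F3.t1, an arginine tRNA gene on chromosome III, had 199.1, with 110.0 and 90.1. It was the only one of these 12 genes that was not on the X chromosome.

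In replicate 1, 151 members had a region whose summit lay in the gene or within 100 bp, with a median signal of 41.4 (quartiles 28.5 and 64.3) against 19.4 over all candidates of that replicate. In replicate 2, 150 members had such a region, with a median of 46.7 (quartiles 29.9 and 67.4) against 20.5. Both lists held 133 members, replicate 1 alone held 18, replicate 2 alone held 17, and neither held 3, which were F38G1.t1, F57G8.t4 and Y43D4A.t1. Over the 133 genes, Spearman's rho between the replicates was 0.75 and Pearson's r was 0.81. These points share the control library and in part their sequence and their regions, so the correlation is a description. It was 0.61 by Spearman over the 78 optimal members and 0.091 over the 55 others. That split was made on the pooled signal, which narrows the range of values in each part. The pooled signal is also made from both replicates, so the split can itself lower the correlation. The value of 0.091 therefore cannot show whether the replicates share the order of the weaker members.

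**Figure D1:**
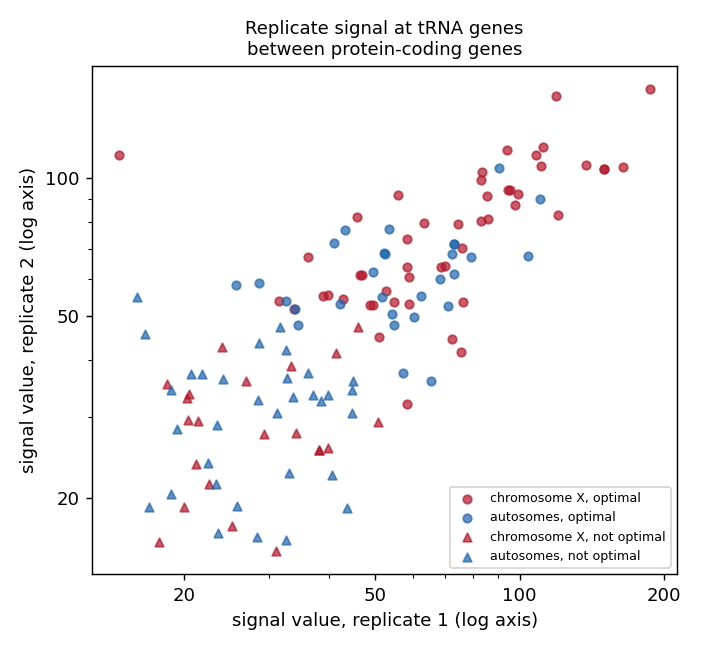
Signal value of the 133 members found in both replicate lists, with replicate 1 on the x axis and replicate 2 on y. Both axes are log scales in the authors' unit. Circles mark optimal members and triangles the others, and colour separates the X from the autosomes. Most optimal members lie to the upper right, where the replicates rise together, while the others form a cloud without a slope; the point far to the upper left is C53C7.t1.

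The best 423 regions of replicate 1 included regions at 63 members, those of replicate 2 regions at 71, and both held 54 (31.6% of members). Counted by overlap with the pooled region, the number was 56 members, where 0.883% of all pooled candidates overlapped one of the best 423 regions of each replicate. All 54 were optimal by the first count. Of the 78 optimal members, only C43G2.t1 ranked below 423 in each replicate, at 1447 and 434.

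The replicates ranked 3 members most differently. C53C7.t1 stood at rank 28989 in replicate 1, with a signal of 14.6, and at rank 53 in replicate 2, with 112.2. Its neighbour C53C7.t2 had 108.4 in replicate 1, at rank 58, so the summit of the strong region in replicate 1 fell within 100 bp of C53C7.t2 and not of C53C7.t1. F14B6.t2, a methionine tRNA gene, had 16.0 in replicate 1 and 54.9 in replicate 2, at ranks 24243 and 276. C12C8.t2, a glycine tRNA gene, had 16.6 and 45.7, at ranks 22358 and 508. In all of these replicate 2 was the higher.

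At the edge of the optimal set the values ran on without a gap. The lowest signal of any optimal region was 85.3. Just above it lay F12D9.t2 at 87.3, F02H6.t1 at 86.1 and F09B9.t1 at 85.4, and just below it ZK822.t1 at 84.5, R02E12.t1 at 83.7 and F19H6.t1 at 83.6. The lowest members were rtw-5 at 26.0, F49C5.t2 at 25.6 and C40C9.t2 at 25.6, each of which was missing from 1 replicate list. At the distance limit, C53C7.t1, C29F7.t2 and M02F4.t2 were just inside with summits 99, 96 and 92 bp from the gene. Just outside were W09G10.t3, F11A1.t1 and Y7A5A.t3 at 101, 102 and 111 bp, and the first and last of these lay at regions already assigned to the members W09G10.t2 and Y7A5A.t2. Among the 148 nuclear genes between coding genes without a candidate, 25 had a summit beyond that limit but within 200 bp and 75 had none within 1000 bp.

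About as many summits lay inside the genes as beside them. Of the 171, 90 had the summit inside the gene, 57 upstream and 24 downstream. Measured from the 5′ end in the direction of transcription, the median offset was 18 bp, with quartiles of -18 and 51 bp. Offsets ran from -99 bp upstream to 161 bp downstream. The median was 13.5 bp for optimal members and 25 bp for the others. Over the 159 members alone in their region it was 21 bp. The rule limits the distance to 100 bp, so only the position within that span is information, and the spread is small beside the sonicated fragments of 200 to 800 bp.

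**Figure D2:**
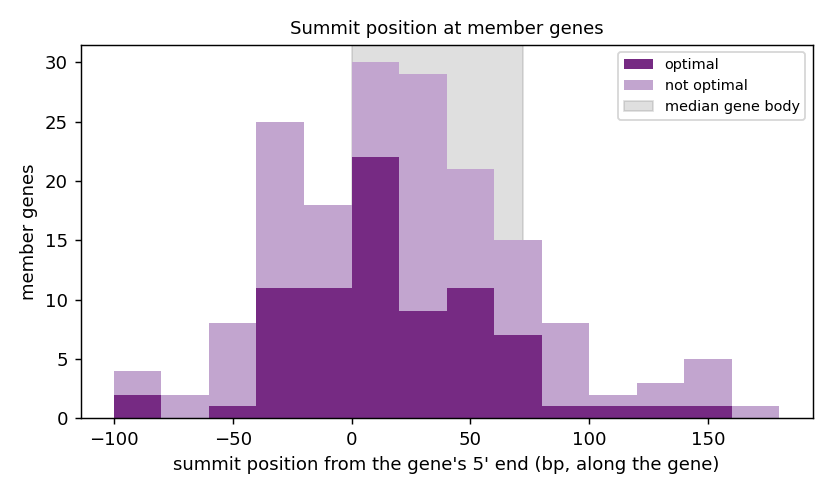
Number of members by the distance in bp from the gene's 5′ end to the pooled summit, negative values upstream, for optimal and other members; the grey band spans the median gene length of 72 bp. Both classes are most frequent near the 5′ end and inside the gene, with more members upstream than downstream of it.

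The X chromosome carried 180 of the 319 nuclear tRNA genes between coding genes (56.4%), although it makes up 17.7% of the genome. A candidate was found at 88 of these 180 (48.9%, 41.7 to 56.1) and at 83 of the 139 on the autosomes (59.7%, 51.4 to 67.5). The order was the other way for strong regions: 49 genes on the X were optimal (27.2% of 180, 21.2 to 34.1) and 29 on the autosomes (20.9% of 139, 14.9 to 28.4). In both comparisons the intervals of the X and the autosomes overlapped. A larger share of the genes on the X lay in tRNA clusters, which are described below. Among isolated genes, the candidate shares of the X and the autosomes were close and the optimal share was higher on the X. Among clustered genes, the candidate share was lower on the X and the optimal shares were close. The part of clustering in these comparisons was not tested. The difference of 6.36 percentage points in optimal genes was 2.61 points with the summit required inside the gene, and 1.45 points when the best 1000 candidates took the place of the optimal set. Among members, 55.7% of those on the X were optimal (45.3 to 65.6) and 34.9% of those on the autosomes (25.6 to 45.7).

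The median pooled signal of members was 98.3 on the X and 67.3 on the autosomes. It was 48.7 and 36.6 in replicate 1, and 53.6 and 37.5 in replicate 2, so the X was higher in each replicate. With members taken from each replicate's own list instead, the X minus autosome difference was 5.91 in replicate 1 and 15.4 in replicate 2. The upper quartile differed more than the lower one: it was 145.3 on the X and 94.9 on the autosomes, while the lower quartiles were 50.3 and 49.2. By chromosome, the medians were 64.4 over 17 members on I, 69.5 over 16 on II, 64.3 over 15 on III, 79.2 over 20 on IV and 57.2 over 15 on V. Of the 20 strongest members, 18 were on the X.

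All pooled candidates together had medians of 34.5 on the X and 34.2 on the autosomes, and the X held 16.5% of candidates, 25.3% of optimal regions and 62.8% of optimal members. For tRNA genes inside coding genes the median was 78.6 over 55 genes on the X and 80.6 over 119 on the autosomes, and 43.6% and 46.2% of those with a candidate were optimal. Their upper quartile was higher on the X, as among the members, at 140.5 against 104.3. Their medians were 48.0 on the X and 40.6 on the autosomes in replicate 1, and 42.1 and 43.8 in replicate 2, so the order differed between the replicates. Taken over both chromosome classes, tRNA genes inside coding genes had candidates at 174 of 293 (59.4%), 79 of them optimal (45.4% of 174), with a median signal of 80.3. These shares lie near those of the members. Whether the X and the autosomes differ more for tRNA genes between coding genes than for those inside them was not tested.

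**Figure D3:**
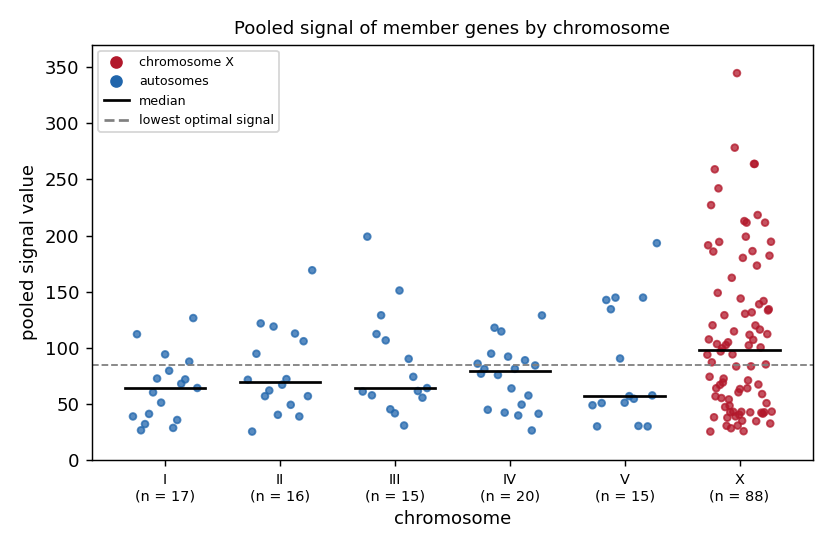
Pooled signal value (linear scale, authors' unit) of every member by chromosome, with the median of each chromosome as a solid line. Members on the X and on the autosomes are coloured apart, and a dashed line marks the lowest optimal signal of 85.3. The X holds 88 of the 171 members and its median of 98.3 lies above those of the 5 autosomes, from 57.2 to 79.2, though its points reach down to 25.6.

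All 20 amino acids were represented. The highest medians of pooled signal were those of cysteine (133.7, 2 members), proline (107.6, with 8 of 11 members optimal), arginine (107.5, 8 of 10), serine (103.7, 6 of 10), isoleucine (103.5, 4 of 7) and alanine (103.3, 8 of 12). The lowest were those of histidine (39.9, 0 of 4), phenylalanine (40.5, 1 of 5), asparagine (40.8, 1 of 4) and tryptophan (42.5, 0 of 3). Neighbours in this order overlapped in range, as proline ran from 43.4 to 242.1 and arginine from 48.7 to 218.4. Leucine, lower in the order, ran from 41.3 to 344.6.

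The strongest member of most amino acids was far above its median. F34H10.t1 led alanine at 194.6, F42D1.t1 cysteine at 173.3, F22F1.t6 methionine at 182.2, R11.t1 tyrosine at 180.2 and R04D3.t2 valine at 199.1, all on the X. T14F9.t1 led aspartate at 129.2 and F52H2.t2 asparagine at 116.4, also on the X. On the autosomes, Y39B6A.t9 led phenylalanine at 142.7 and T03E6.t1 glutamine at 134.5, both on V, and Y65A5A.t4 led histidine at 76.0 on IV. The highest tryptophan tRNA gene was sup-29 on IV at 45.03, with 28.5 and 16.4 in the replicates, so tryptophan had no strong member in either.

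**Figure D4:**
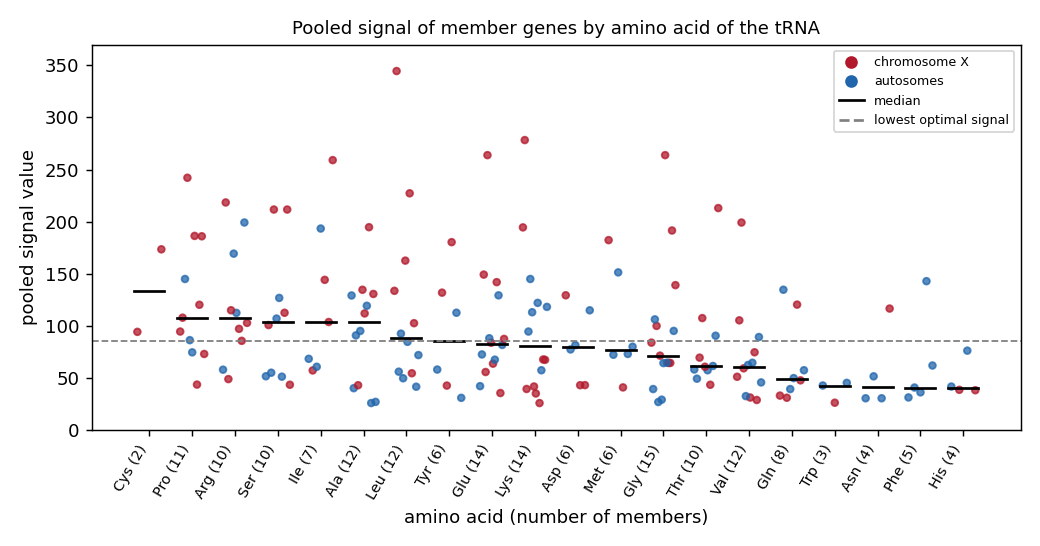
Pooled signal value (linear scale, authors' unit) of each member by the amino acid its tRNA carries, ordered by median. Members on the X and on the autosomes are coloured apart, with medians as solid lines and the lowest optimal signal of 85.3 dashed. Most amino acids have members on both sides of the dashed line, while histidine and tryptophan have none above it.

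Identical genes differed widely in signal. The 171 members had 79 distinct gene sequences, and 124 of them belonged to 32 families of at least 2 identical members. In the 21 families with 3 or more members, the highest signal was 3.67 times the lowest in the median family, with a range from 1.07 to 10.9 times, and 16 of these families held optimal and other members side by side. The alanine family with anticodon AGC, which has 17 copies in the genome, shows this gene by gene. F34H10.t1 on the X had 194.6, with 94.7 in replicate 1 and 94.1 in replicate 2. Y65A5A.t1 on IV had 129.0 (68.4 and 60.02), and ZK622.t1 on II had 119.1 (71.0 and 52.4). T18D3.t1 on the X had 111.7 (58.8 and 53.1). These 4 were optimal and both replicates placed them high.

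The other 3 were far lower. T08A9.t1 on the X had 42.8 (25.2 and 17.4), Y7A9D.t2 on IV had 39.9 (16.9 and 19.2), and F49C5.t2 on II had 25.6, with 16.9 in replicate 1 and no region in replicate 2. The pooled summits at Y7A9D.t2 and F49C5.t2 lay outside the gene, as did those at the optimal Y65A5A.t1 and T18D3.t1. The printed F34H10.t1 and F49C5.t2 carry the same gene, with the same boxes, and differ only in the flanking bases. In the family of identical lysine genes with anticodon CTT, which has 25 copies, W03G11.t1 had 278.3 and C40C9.t2 had 25.6. The 8 further members lay between 34.8 and 121.9. The pooled summit at C40C9.t2 lay 83 bp outside the gene, with 31.1 in replicate 1 and no region in replicate 2. In 24 families with members on the X and on autosomes, the highest member was on the X in 18 and the median of the X members was the higher in 16. Lysine was an exception by its median, with 39.1 on the X and 112.9 on the autosomes.

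**Figure D5:**
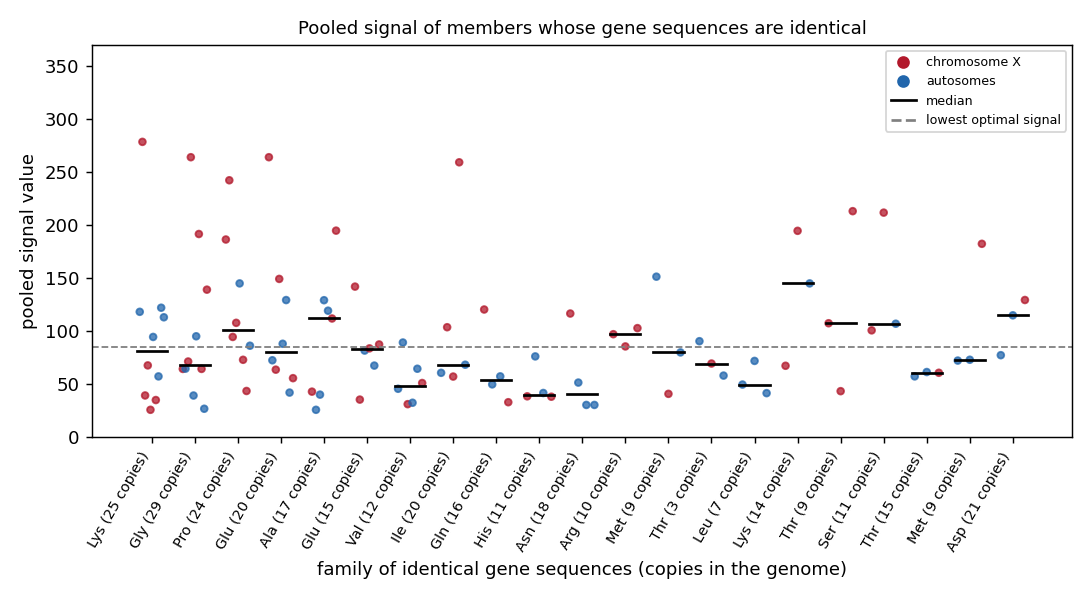
Pooled signal value (linear scale, authors' unit) of the members of the 21 families of identical gene sequence with 3 or more members. X and autosomes are coloured apart, with medians as solid lines and the lowest optimal signal of 85.3 dashed. Within 16 families, points with the same gene sequence lie on both sides of the dashed line.

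The members were also described by how far their sequence is repeated in the genome. The share of 32-mers in the gene and 50 bp on each side that occur once in the genome served as a measure of uniqueness. Of the 6 genes between coding genes with a share under 25%, 0 had a candidate, and of the 17 with 25 to 50%, 4 had a candidate and 0 were optimal. From 50 to 75%, 143 of 250 had a candidate and 69 were optimal, and above 75%, 24 of 46 had a candidate and 9 were optimal. Genes with a single copy had a candidate in 34 of 74 (45.9%), 10 optimal, with a median signal of 54.5. Those with several copies had a candidate in 137 of 245 (55.9%), 68 optimal, with a median of 83.6. Within 50 bp of the summit, the median unique share was 56.4% for optimal members and 74.3% for the others. Its part in the signal was not tested. The median share of the genes between coding genes was 63.4% on the X and 63.1% on the autosomes.

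Isolated tRNA genes had candidates more often than clustered ones, and this gap lay mainly on the X. With nuclear tRNA genes joined where gaps were at most 1000 bp, 106 of 171 isolated genes between coding genes had a candidate (62.0%, 54.5 to 68.9) and 55 were optimal (32.2%, 25.6 to 39.5). In clusters, 65 of 148 had a candidate (43.9%, 36.2 to 52.0) and 23 were optimal (15.5%, 10.6 to 22.2). The intervals did not overlap, but they treat genes as independent, although clustered genes can share a region. The difference between isolated and clustered genes was not tested. Median signals of members were 86.7 and 64.2, in replicate 1 44.7 and 38.2, and in replicate 2 51.6 and 39.1. A region has 1 summit, so a cluster closer than a region's width can hide a member, and the part of this was not tested. Most of the clustered genes were on the X. On the autosomes, isolated and clustered genes had similar shares with a candidate, while the optimal share was lower in clusters on both the X and the autosomes.

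The cluster with most members, at X:8154445-8156707, held 6 genes, of which 3 were members. F22F1.t6 (methionine) had 182.2, with 95.3 and 94.1 in the replicates, F22F1.t7 (isoleucine) had 57.0, with 18.4 and 35.4, and F22F1.t5 (aspartate) had 42.8, with 21.2 and 23.7. F22F1.t2, F22F1.t3 and F22F1.t4 had no candidate, so recovery within this cluster centred on F22F1.t6. Another 15 clusters held 2 members each. In M02F4 and C53C7, taken from these for their signal, both genes point away from each other and share the summit between them, which puts it upstream of each, 25 and 92 bp in M02F4 and 32 and 99 bp in C53C7.

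Most members lay far from coding starts. The distance from the 5′ end of the gene to the nearest annotated start of a protein-coding transcript had a median of 1611 bp, with quartiles of 682.5 and 2966.5 bp and a range from 109 to 11373 bp. For genes between coding genes without a candidate the median was 1927.5 bp. Of the members, 58 lay within 1000 bp of a coding start (33.9%), against 96 of all 319 (30.1%). Of 52 genes within 500 bp of a coding start, 27 had a candidate and 16 were optimal (30.8%, 19.9 to 44.3), and of 34 genes beyond 5000 bp, 15 had a candidate and 6 were optimal (17.6%, 8.35 to 33.5). These intervals overlap. Over the members, Spearman's rho of pooled signal was -0.10 with coding distance, -0.049 with the unique share and 0.10 with G+C content.

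The closest was F44A2.t1, 109 bp from a start of the potassium channel gene kvs-3, with a signal of 90.6. Among the strongest members, C04E7.t1 lay 283 bp from a start of sor-3, while R01H5.t1 lay 10985 bp from the nearest start. Members on the X lay further away than those on the autosomes, with medians of 1886.5 and 1122 bp. The same order held for all nuclear tRNA genes between coding genes, at 1899.5 and 1409 bp, and for those inside coding genes, at 1514.5 and 1093 bp.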

How the data were processed

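ChIP-seq (chromatin immunoprecipitation and sequencing) regions of 2 biological replicates of 1 group were used. Each replicate's 30000 candidates were made from its alignments and 1 control, the pooled list from both replicates together, and the optimal set by IDR on these lists, per the submitters' file manifests. Per the labels, coordinates are on ce11. Aligner, peak caller, versions and IDR threshold: not given in the sources used here. Every region has a deposited signal value, a score of the authors whose scale is not stated and which was used only within a list, and −log10 q-values as deposited, of which 251 of the pooled 30000 reach 2; these were not used to rank. It was checked that the optimal set equals the 423 pooled regions of highest signal.

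Genes came from Ensembl release 115 for WBcel235, and names, amino acids and sequence from RefSeq for the same assembly. Placement was by summit, within 100 bp of the gene, for the pooled and each replicate list, and was tested on simulated data. The A box, B box and anticodon were located by pattern, the boxes on the coding strand in genes and on both strands in other windows; an anticodon in a stem of at least 4 of 5 pairs was found for 156 members. The shorter B box core used as an alternative was GTTCNANNC. A 32-mer counted as unique if it occurs once in the genome on either strand. The tools were matplotlib 3.10.9, scipy 1.17.1, numpy 2.4.6, pandas 2.3.3 and Python 3.11.15. Sequences of genes on chromosome I, or with an identical copy there, are not shown.

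The members, gene lists and groupings were chosen with earlier results of these data known. The rule for named genes took the 12 members of highest signal, 3 on each side of the lowest optimal signal, the 3 lowest, the 3 whose replicate ranks differ most by ratio, the members of the 3 clusters with most members and the highest of each amino acid. Other genes are named as the limits of a rule or as members of a family, or were chosen after their values were seen (C43G2.t1, F44A2.t1, the 3 members found in neither replicate list and the alanine family). Alternatives changed the list, the distance, the definition of a gene between coding genes, the threshold, the cluster gap, the uniqueness, the coding start and the boxes.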

Additional observations from a re-analysis of the deposited data

How the results depend on the processing

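In all, 13 results were recomputed under up to 22 settings. Of the values, 84 stayed near the reported one and 46 moved. Only the X minus autosome differences were checked for a change of sign, and 0 changed. The count best in both replicates used both lists throughout, so leaving out 1 replicate could not alter it. A share moved if it left its 95% Wilson interval, a median or difference if it moved by more than the SD of the replicates' values, and a count if it changed by over 1.5 times. From each replicate list alone, optimal then meaning its best 423 regions, 162 to 176 genes were members and 65 to 72 optimal (36.9% to 44.4%). The X share was then 53.1% to 54.0%. The X minus autosome difference was 5.58 to 6.79 percentage points in optimal genes, and 5.91 to 15.4 in median signal against 31.0 as reported. The median signal was 38.2 to 44.1, on the replicates' own scale, and the median offset 12.5 to 20 bp. With the summit inside the gene, 90 genes were members, 46 optimal and 33 best in both replicates, with a median signal of 86.7, an offset of 30 bp, a coding distance of 1448 bp and an X minus autosome difference in optimal genes of 2.61 points. Within 50 bp the signal was 83.6 and the coding distance 1462 bp. Within 200 bp the X minus autosome differences were 5.15 points and 22.8, and by any overlap 4.59 points. With genes opposite a coding gene included, the signal was 81.3, the coding distance 1434 bp and the differences 4.05 points and 22.8. At least 500 bp from coding genes, 100 genes were members, 45 optimal and 32 best in both replicates, at 2124 bp, with 59.0% on the X and a difference of 8.10 points. The better 50% of the optimal set held 49 members (28.7%), 33 best in both replicates, and a difference of 8.10 points; the best 1000 candidates held 57.9% of members and a difference of 1.45 points. With at least 90% unique sequence, 20 members were optimal (35.7%) at a median signal of 64.2, and the difference was 18.9 points; there members were judged at the summit and genes without a candidate over the gene, so this difference mixes measures. Genes with 1 copy gave 10 optimal members (29.4%) and a signal of 54.5. Coding starts on the same strand lay at 2971 bp. Cluster gaps of 500 and 5000 bp put 25.1% and 54.4% of members in clusters. The shorter B box core put both boxes in 96.5%, and 1 mismatch per box in 100% of members. The counts under narrower rules fall by construction; for the other moves the cause was not tested. No paired analysis was possible because there is 1 group. Depth was unknown, so a gene without a candidate was not detectable in these lists rather than shown to be unbound.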

Other observations

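Genes for the machinery that transcribes and matures tRNAs had candidates about as often as other coding genes. Of 20 genes in a list of RNA polymerase III subunits, its factors and tRNA maturation enzymes, 19 were matched by name. A candidate from 1000 bp upstream to 200 bp downstream of a coding start was found at 8 (42.1%), against 7648 of all 19973 nuclear coding genes (38.3%). The best candidate was optimal at 0 of the 8 and at 3.45% of the 7648, a background at which 0 of 8 is no result. Of the 8, 5 lay above the median of 34.2 over all pooled candidates, and 4 above the median of 37.2 over the best candidates of coding genes. The highest was mafr-1, a repressor of RNA polymerase III transcription, at a pooled signal of 50.8 and rank 3395. The TFIIIC subunit gene tftc-1 had 45.1 at rank 5729, and rpc-1, which encodes the largest subunit of RNA polymerase III, had 44.2 at rank 6217. snpc-4, which encodes a subunit of a complex that activates small nuclear RNA genes, had 41.2. The value was 34.4 at hoe-1, which encodes the enzyme that trims the 3′ end of tRNAs. All 8 values were below the median of 76.0 at the tRNA genes between coding genes. The list was chosen with earlier results of these data known, so its counts are a description.

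The mitochondrial genome carries 22 annotated tRNA genes, and 0 of them had a pooled candidate. Of the anticodons located among nuclear tRNA genes between coding genes, 40 occurred among the members.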
